A study of Mus musculus with 3 samples.

Results

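Patellar tendon fibroblasts in which transcripts of Cd55 and Cd248 were found in the same droplet were examined in mice of 2 and 20 weeks. The members were chosen by their measured Cd55 and Cd248 UMIs, with a filter on sheath genes. A barcode (a droplet tag that stands for 1 cell) was kept if it held at least 500 genes, at least 1000 unique molecular identifiers (UMIs, counted RNA molecules) and at most 10% mitochondrial UMIs. It was called double-positive if it held at least 1 UMI of Cd55 and at least 1 of Cd248, and fewer than 3 of the 5 sheath-like markers Akr1c18, Krtdap, Sbsn, Dpp4 and Aldh1a3. The rule found 1046 double-positive barcodes among 6588 kept: 702 of 4964 at 2 weeks, 81 of 609 in 20-week replicate 1 and 263 of 1015 in 20-week replicate 2. They were compared, inside each library, with barcodes that held a UMI of Pdgfra and passed the same sheath filter, but had Cd55 alone (159, 35 and 85), Cd248 alone (534, 60 and 108) or neither (777, 75 and 187). Throughout, values from the 3 libraries are in the order 2-week library, 20-week replicate 1, 20-week replicate 2.

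The series compared patellar tendons of 2-week-old and 20-week-old mice labelled WT, with no treatment named. Tendons were digested with collagenase, cells of blood and endothelial lineages were removed by sorting, and the rest went through 10x Genomics droplet sequencing. The labels give 1 library at 2 weeks and 2 at 20 weeks and do not say how many animals each holds. The p-values of class contrasts thus rest on how far class differences varied across these 3 libraries, which may be technical. Those for age rest on a spread shared over genes, as described below. In the double-positive sums Xist was at 0, 427 and 1.03 CPM (UMIs scaled to a common total), and the Y-linked genes Ddx3y, Uty, Eif2s3y and Kdm5d had no UMI in 20-week replicate 1 but were present in both other libraries. That replicate was also the shallowest, with a median of 2848 UMIs per kept barcode against 6570 and 5132. These genes and the depth thus set 1 of the 2 older libraries apart from the other libraries. EGFP and tdTomato transcripts were present in all 3 libraries although the genotype label is WT.

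Cd55, the decay-accelerating factor, is a membrane protein that shields cells from complement by taking apart its convertases. Cd248, or endosialin, is a transmembrane glycoprotein of stromal cells and pericytes. Pi16, Dpp4 and Ly6a mark a fibroblast state found in the connective tissue around many organs and often described as a progenitor reservoir. Tenocytes, the cells between the collagen fibres of the tendon proper, are known by Scx, Tnmd and the matrix proteins Fmod, Comp and Thbs4. On GRCm38 (mm10), Cd55 lies at chr1:130439027-130462744 on the minus strand and Cd248, a gene on the plus strand, at chr19:5068078-5070682.

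Double-positive barcodes made up 14.1% of kept barcodes at 2 weeks (95% exact binomial interval 13.2 to 15.1), 13.3% in 20-week replicate 1 (10.7 to 16.3) and 25.9% in 20-week replicate 2 (23.2 to 28.7). These intervals cover counting error only. The share depended on depth. Double-positive barcodes held medians of 7086.5, 3552 and 7172 UMIs, against 6038, 2429 and 4949 in the double-negative class. When each barcode was thinned to 2000 UMIs the shares were 9.14%, 12.6% and 14.7%, with 236, 142 and 122 shallower barcodes left out. At 1000 UMIs they were 5.18%, 4.93% and 6.11%, and their intervals overlapped. Before thinning, the 2 replicates at 20 weeks differed from each other by more than either did from the 2-week library, and no test between ages was made. Of the barcodes with Pdgfra, 24.2%, 19.5% and 38.1% were double-positive.

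**Figure D1:**
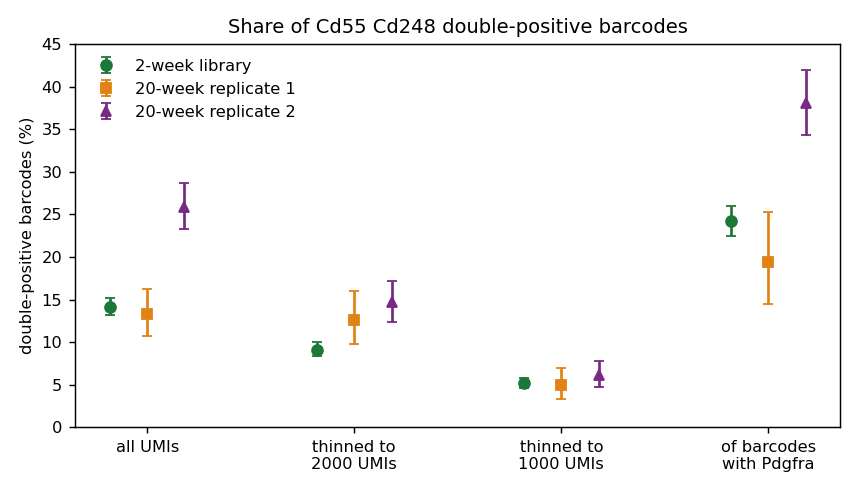
Share of double-positive barcodes (vertical axis, %) in each library with all UMIs, after thinning to 2000 or 1000 UMIs per barcode, and among barcodes with Pdgfra. Points are single libraries and bars are exact 95% binomial intervals; at 1000 UMIs the 3 libraries lie between 4.93% and 6.11%.

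Both transcripts met in the same barcode more often than their separate frequencies gave. Before the sheath filter, 1058, 91 and 276 barcodes held the pair. That was 1.93 times (counting interval 1.81 to 2.05), 1.48 times (1.20 to 1.82) and 1.45 times (1.28 to 1.63) the number expected within deciles of UMI depth. Among barcodes with Pdgfra the ratios were smaller, at 1.36, 1.10 and 1.19, and the interval of 20-week replicate 1 then ran from 0.813 to 1.45. The pair was also counted in barcodes with 3 or more markers of another cell type. Free RNA, doublets and expression in those cells cannot be told apart there. Of 871 chondrocyte-like barcodes at 2 weeks, with a median of 7372 UMIs, 1.49% (0.797 to 2.54) held both. The share there was 4.74% of 1119 mural barcodes, a type that can express Cd248, 4.85% of 103 myogenic or muscle fibre barcodes and 7.58% of 66 Schwann barcodes. In 20-week replicate 2 it was 6.67% of 75 myogenic or muscle fibre barcodes (2.20 to 14.9) and 0 of 52 blood-lineage barcodes (up to 6.85%).

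The UMIs that chose the members were few in most of them. Cd55 had a median of 3, 2 and 3 UMIs per member, with a highest value of 42, 20 and 48. Cd248 had a median of 3 in all 3 libraries and a highest value of 23, 13 and 24. In 90, 11 and 30 members each gene had a single UMI. The sheath filter mattered mainly at 2 weeks, where it took away 356 barcodes (33.6% of those with the pair), against 10 (10.99%) and 13 (4.71%) at 20 weeks. Just inside that threshold, 225 members of the 2-week library with 2 sheath markers held Pi16 at 1519 CPM and Fbn1 at 3611 CPM. Just outside it, 156 barcodes with 3 sheath markers held Pi16 at 1958 CPM and Fbn1 at 4102 CPM, so neither gene had a step at the threshold. Members with no sheath marker (219) held Pi16 at 238.5 CPM.

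The markers given with the class, Pi16, Efemp1, Fbn1 and Smpd3, were then checked in UMI sums per class and library. CPM values in tests were scaled by the trimmed mean of M-values over the 12 sums; 1 UMI was about 3.5 CPM in the double-positive sum of 20-week replicate 1. Because the markers came with the rule, these values describe the label. Pi16, a secreted peptidase inhibitor, was at 925, 3190 and 1263 CPM in double-positive sums and at 26.1, 48.9 and 200 CPM in double-negative ones. All 3 double-positive values lay above all 9 values of the other classes except that of the Cd248-only sum in 20-week replicate 1, at 1037 CPM, which exceeded the 2-week member sum.

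Efemp1, or fibulin-3, an elastic fibre-associated glycoprotein, was at 264, 505 and 743 CPM against 7.62, 65.2 and 97.1 CPM. Fbn1, the main subunit of microfibrils, was at 2436, 1856 and 1537 CPM against 309, 359 and 182 CPM, and its double-positive values overlapped with those of no other class. Smpd3, a neutral sphingomyelinase that releases ceramide, was at 62.6, 469 and 58.4 CPM in double-positive sums, at 41.6, 10.9 and 6.48 CPM in double-negative ones, with the highest level in members of 20-week replicate 1.

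Smpd3 was detected in 12.8%, 44.4% and 15.6% of members, against 10.0%, 1.33% and 1.60% of double-negative barcodes. Pi16 was detected in 66.8%, 85.2% and 76.4% of members, and in 41.6%, 74.1% and 49.4% after thinning to 1000 UMIs. Efemp1 was found in 49.4%, 61.7% and 80.6%, and Fbn1 in 96.4%, 92.6% and 92.0%. At least 1 of the 4 markers was missing in most members: all 4 were found in 62 (8.83%), 22 (27.2%) and 30 (11.4%). None was found in 19, 3 and 5. By these sums Pi16, Efemp1 and Fbn1 went with the label. The sum of Smpd3 was highest in the double-positive class of every library, by unequal amounts. By detection, Smpd3 was found in a minority of members in every library, and Efemp1 in a minority at 2 weeks.

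**Figure D2:**
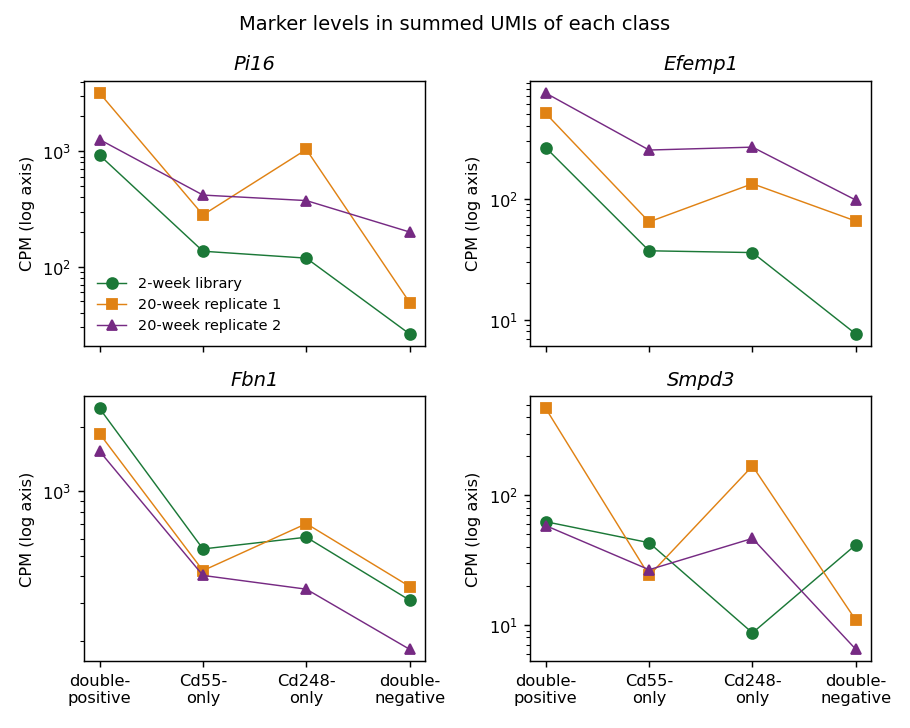
CPM on a log axis of Pi16, Efemp1, Fbn1 and Smpd3 in the UMI sum of each class (double-positive, Cd55-only, Cd248-only, double-negative), 1 line per library, with no error bars as each point is 1 sum. Fbn1 is higher in the double-positive sum of every library than in any other class; Smpd3 is also highest in that sum in every library, by unequal amounts.

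Set against double-negative barcodes of the same library, double-positive barcodes were richer in Pi16-state genes and the ligands Wnt2 and Wnt10b, and poorer in tendon and cartilage matrix genes. edgeR's quasi-likelihood test, with the library as a block, covered 8372 genes and at an adjusted p under 0.05 called 602 of them higher and 588 lower, 14.2% in all. The 8 genes that the rule counts were not tested. Of the 38 genes listed as progenitor or universal fibroblast genes, 33 were higher (7.19% of all genes were) and 2 lower, with a median log2 difference of 1.97 against -0.01 over all genes. The list includes the markers just described, and it was chosen with earlier results of these data known. Its counts, here and in the contrasts below, thus describe the class and are not independent evidence.

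Among the marker genes Pi16 had a log2 difference of 4.22 (SE 0.46, adjusted p = 6.22e-06), Efemp1 of 3.804 (SE 0.33, adjusted p = 6.45e-07) and Fbn1 of 2.81 (SE 0.18, adjusted p = 1.57e-07). Smpd3 had a log2 difference of 1.55 (SE 0.55) and missed the threshold at an adjusted p = 0.0731. Without barcodes that held 3 or more markers of another cell type its log2 difference was 3.33 (adjusted p = 5.67e-05).

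Stmn4, a stathmin that binds tubulin, was at 67.4, 134 and 98.4 CPM in double-positive sums and at 1.31, 5.43 and 0 CPM in double-negative ones (log2 difference 5.77, SE 0.45, adjusted p = 3.15e-07). Dact2, a Dishevelled-binding modulator of Wnt and TGF-beta signalling, was at 54.7, 106 and 69.2 CPM against 0.436, 0 and 4.32 CPM (log2 difference 5.63, adjusted p = 1.83e-07). Neither gene's ranges overlapped between these classes. A pair of Wnt ligands behaved alike. Wnt2 was at 59.1, 88.2 and 21.02 CPM against 1.31, 5.43 and 2.16 CPM. Wnt10b was counted 226 times in members and 3 times in double-negative barcodes, a ratio of 64.6 in CPM with a counting interval of 21.8 to 316. Other genes with large differences were the sialic acid hydroxylase Cmah (log2 difference 5.45), the tubulin gene Tubb4a (4.27) and the nuclear receptor Rorb (3.97).

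Members of the list with higher abundance also passed. Mfap5, a microfibril component, was at 3928, 2633 and 2145 CPM against 505, 408 and 576 CPM. Clec3b, or tetranectin, had a log2 difference of 1.89, Cd34 of 2.09, and Ly6a, which has close homologues whose reads may be shared, of 2.04. The angiopoietin receptor Tek was at 77.2, 127 and 133 CPM against 1.96, 16.3 and 25.9 CPM. Tek is also 1 of the 8 endothelial markers, which together came to 79.4, 124 and 140 CPM in plain CPM, with 3, 7 and 6 of them at 0. Cldn5, Emcn and Vwf had no UMI in any double-positive sum, and Tek made up 387 of 408, 36 of 36 and 260 of 261 endothelial UMIs. The 2 genes of the list that were lower were Nt5e, or CD73, with a log2 difference of -1.93, and Pdgfrb, with -0.78.

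Hba-a1, a haemoglobin chain with a near-identical copy, had a log2 difference of 4.09 at 76.8, 3.53 and 18.97 CPM. The 10 blood-lineage markers, which include Hba-a1 and Hbb-bs, together came to 405, 3.43 and 31.6 CPM, with 3, 9 and 5 of them at 0. Ptprc and Csf1r were at 0 in all 3 double-positive sums, and Hbb-bs made up 1685 of the 2079 UMIs at 2 weeks. The part of blood-lineage RNA in the Hba-a1 difference was not tested.

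The tendon lineage list went the other way: 16 of 18 genes were lower, none higher, with a median log2 difference of -2.49 (7.02% of all genes were lower). Tnmd, a membrane glycoprotein of mature tenocytes, was at 289, 3.53 and 3.08 CPM against 2838, 59.8 and 184 CPM (log2 difference -3.96, SE 0.45, adjusted p = 9.20e-06). Scx, the transcription factor that defines the tendon lineage, was at 72.8, 67.0 and 8.20 CPM against 449, 707 and 240 CPM (log2 difference -3.25). Comp and Fmod, which organise collagen fibrils, had log2 differences of -4.21 and -4.69. In each library the values of Tnmd, Scx and Comp were lower in members.

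Matrix genes split by kind, where 7.19% of all genes were higher and 7.02% lower. Of 31 genes for collagens and their processing 10 were lower and 3 higher; Col1a1 was at 14731, 593 and 783 CPM against 33991, 1772 and 1519 CPM, and Col3a1 differed by a log2 of 0.19 (adjusted p = 0.636). Of 19 elastic fibre and microfibril genes 8 were higher, among them Emilin2 (log2 difference 3.10) and Fbln2 (1.32), and 6 lower, such as Mfap4 (-1.44). Of 20 genes for small leucine-rich proteoglycans and mature matrix 10 were lower and 3 higher. In the list of Wnt, BMP and TGF-beta modulators 11 of 26 were lower, led by the secreted antagonists Frzb (-4.77) and Grem1 (-4.47), and 5 were higher, including Wnt2 and the receptor Tgfbr2 (1.36).

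Mineral and cartilage genes were among the largest falls. Ibsp, bone sialoprotein, had no UMI in members and 498 in double-negative barcodes, at least 193-fold lower. The 8 osteogenic-like markers, which include Ibsp, summed to 36.8, 27.5 and 4.28 CPM in members against 83.6, 172 and 304 CPM. Spp1, or osteopontin, was at 3.99, 52.9 and 2.05 CPM against 379, 1755 and 1177 CPM, and the proteoglycan Acan at 4.59, 0 and 0 CPM against 115, 65.2 and 30.2 CPM. The double-negative class held cells of other kinds. Its 10 chondrocyte-like markers summed to 1692, 78.7 and 50.5 CPM, against 64.3, 3.43 and 2.14 CPM in members, and its 8 tenocyte markers to 6107, 7651 and 5834 CPM against 876, 471 and 448 CPM. With barcodes holding 3 or more markers of another cell type left out of both classes, 1066 genes passed, 944 of them shared with the full comparison. Tenocytes were not among the types left out. Barcodes with 3 or more tenocyte markers, 53.4%, 41.3% and 35.3% of the double-negative class, thus stayed unless they held markers of another type. The part of tenocyte content in the tendon gene differences was not tested.

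**Figure D3:**
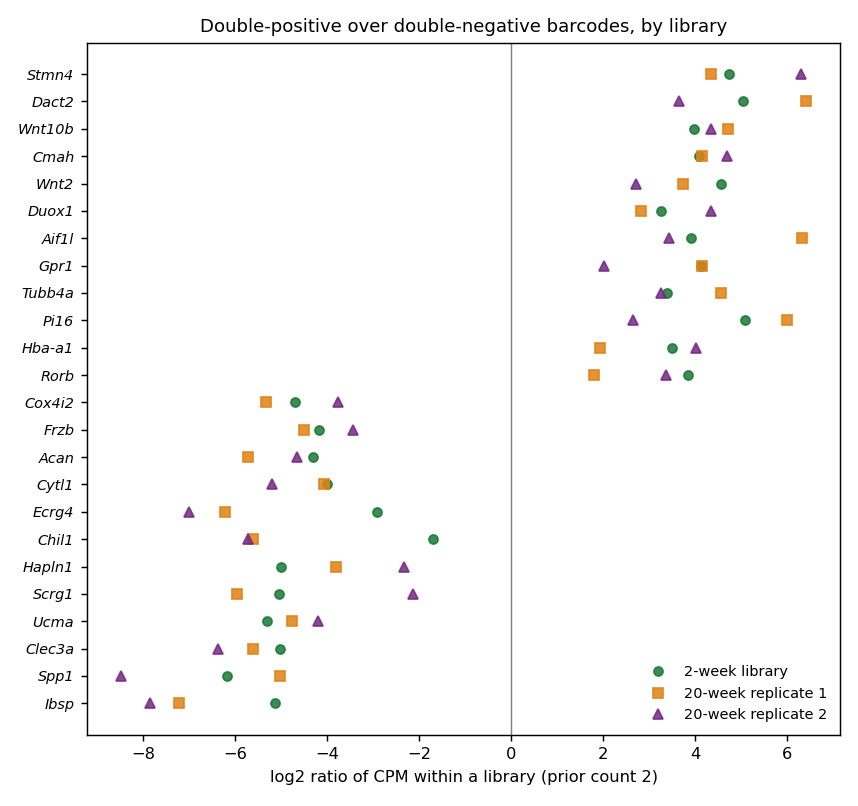
Log2 ratio of CPM, double-positive over double-negative, in each library (prior count 2), for the 12 genes with the largest rise and the 12 with the largest fall among those that passed with the same sign in every library. Each symbol is 1 library; in all 24 genes the 3 libraries lie on the same side of 0.

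Of 26 genes induced by dissociation or stress 11 were lower in members, including Fos (log2 difference -0.76) and Junb (-0.90), and Klf4 was higher (0.84). Over all genes 7.02% were lower and 7.19% higher. Of 15 adipogenic and stromal lipid genes 8 were lower and none higher; Apoe, a lipid carrier, was at 140, 113 and 125 CPM against 743, 1457 and 1430 CPM. Of 24 antioxidant enzymes only Txn1 was higher and only Gpx3 lower, with a median log2 difference of 0.04 (14.2% of all genes passed). NRF2 targets, which respond to oxidants, had 4 of 20 higher and 1 lower. Among oxidant sources Duox1, a hydrogen peroxide-making oxidase, was higher with a ratio of 38.6 in CPM (counting interval 12.9 to 190, from 135 and 3 UMIs).

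Against barcodes with Cd55 alone, double-positive barcodes again had more of the Pi16-state genes and less of the tenocyte genes. In all, 181 genes were higher and 185 lower of 8372, or 4.37%. A barcode with Cd55 or Cd248 alone may be a double-positive cell in which the other transcript was missed. This contrast and the next may thus be diluted, and how often that happened was not tested. Of the 38 progenitor and universal fibroblast genes 28 were higher and none lower, with a median log2 difference of 1.30 (2.16% of all genes were higher). Pi16 in Cd55-only sums was at 136, 281 and 417 CPM (log2 difference 2.54, SE 0.42, adjusted p = 0.00167), and Efemp1 at 37.1, 64.2 and 252 CPM (log2 difference 2.27). Wnt2, at 0.862, 8.03 and 0 CPM there, had a ratio of 44.9 with a counting interval of 12.4 to 373. Smpd3 had a log2 difference of 1.33 with an adjusted p = 0.352.

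Of 18 tendon lineage genes 13 were lower than in Cd55-only barcodes (2.21% of all genes were lower). In that class 40.3%, 54.3% and 20.0% of barcodes held 3 or more tenocyte markers, and their part in this contrast was not tested. Scx was at 271, 3083 and 267 CPM there, Chad, a cartilage and tendon matrix protein, at 191, 3525 and 1468 CPM, and Comp at 317, 5853 and 2007 CPM. The complement regulator Clu was at 57.7, 201 and 78.4 CPM in members and at 157, 4729 and 3845 CPM in Cd55-only sums (log2 difference -4.13, SE 0.71). For Clu, Chad and Comp the gap was wider in the 20-week libraries than at 2 weeks, a difference not tested here. Ibsp was at least 384-fold lower in members. Bglap2, another of the 8 osteogenic-like markers, went the other way, with 124 UMIs in members and 1 in Cd55-only barcodes. Its ratio in CPM was 30.8, with a counting interval of 5.42 to 1226. The 8 markers summed to 36.8, 27.5 and 4.28 CPM in members and to 88.4, 637 and 222 CPM in Cd55-only sums. When classes were set after thinning to 2000 UMIs, 83 genes passed in place of 366, and Pi16 had a log2 difference of 1.24 (adjusted p = 0.0747).

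Against barcodes with Cd248 alone, double-positive barcodes had more of the Pi16-state genes and less of lipid, complement and chemokine genes. In that contrast 236 genes were higher and 253 lower, 5.84% of those tested. Progenitor and universal fibroblast genes were higher in 25 of 38 and lower in 1, Pdgfrb, with a median log2 difference of 1.25 (2.82% of all genes were higher). Of 18 tendon lineage genes 2 were lower, Comp (log2 difference -1.73) and Col1a1 (-0.79), and none was higher (3.02% of all genes were lower). The 11 mural markers summed to 597, 120 and 89.9 CPM in members and to 1330, 123 and 78.8 CPM in Cd248-only sums, and their part in this contrast was not tested. Pi16 was at 119, 1037 and 374 CPM in Cd248-only sums (log2 difference 2.13, SE 0.41, adjusted p = 0.00392). Without the 2-week library its log2 difference was 1.62 (adjusted p = 0.0521), and without the library block it was 2.08 (adjusted p = 0.0606).

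Dact2 was at 1.68, 6.03 and 4.51 CPM in Cd248-only sums, against 54.7, 106 and 69.2 CPM in members (log2 difference 4.59, SE 0.38, adjusted p = 3.95e-06). Stmn4 had a log2 difference of 3.20 and the decoy chemokine receptor Ackr2 of 3.21. Ly6a, at 778, 1790 and 1015 CPM, differed by a log2 of 0.73 and missed the threshold (adjusted p = 0.260).

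Of 15 adipogenic and stromal lipid genes 11 were lower than in Cd248-only barcodes, with a median log2 difference of -1.46 (3.02% of all genes were lower). Steap4, a metalloreductase of adipose stroma, was at 22.3, 17.6 and 35.4 CPM in members against 94.1, 163 and 209 CPM. Gdf10, a BMP-family ligand, was at 41.1, 17.6 and 24.1 CPM against 163, 48.2 and 219 CPM, and the fatty acid-binding protein Fabp4 had a log2 difference of -2.08. Cxcl14, a stromal chemokine, was at 29.1, 113 and 345 CPM against 169, 500 and 1603 CPM (log2 difference -2.34, SE 0.15, adjusted p = 2.42e-07). Within each library these genes were lower in members. Of 11 complement genes 5 were lower, among them C4b (-1.48), and of 18 chemokines and cytokines 5 were lower, including Il6 (-1.21), and only Ackr3 higher.

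The 3 contrasts share the double-positive sums, so their calls are not independent. A total of 182 of the 8372 genes tested passed in all 3, each with 1 sign: 119 higher in members and 63 lower. Singly, the contrasts against double-negative, Cd55-only and Cd248-only barcodes called 14.2%, 4.37% and 5.84% of these genes. Dact2, Stmn4, Wnt2, Wnt10b and Cmah were among those higher in all 3, and so were the muscle genes Acta1 and Tnnc2. In 20-week replicate 2 the 10 myogenic and muscle fibre markers summed to 380 CPM in members. They came there to 67.0 CPM in double-negative, 31.1 in Cd55-only and 199 in Cd248-only sums. In the other libraries their sum was lower in members than in each of these classes. The part of muscle RNA in these contrasts was not tested.

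Members were also split by their UMIs of Cd55 and of Cd248, numbers the rule used, so these values are a description in plain CPM. At 2 weeks, 244 members with 1 Cd55 UMI held Pi16 at 355 CPM, 245 with 2 to 4 held 803 CPM, and 213 with 5 or more held 1493 CPM. Dact2 over the same members was at 7.35, 39.3 and 108 CPM, and Tnmd at 421, 265 and 172 CPM. The groups also differed in depth, with medians of 6666, 6754 and 8048 UMIs.

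In 20-week replicate 2 the same split of Cd55 gave Pi16 at 826, 660 and 1993 CPM, and Efemp1 at 381, 603 and 1084 CPM. In 20-week replicate 1 it gave Pi16 at 2348, 3834 and 3398 CPM over only 33, 28 and 20 members. Pi16 was thus higher at each step of Cd55 in the 2-week library alone, and Efemp1 was so in all 3, where it stood at 103, 221 and 432 CPM at 2 weeks and at 362, 485 and 687 CPM in 20-week replicate 1. The same split by Cd248 UMIs gave Pi16 at 225, 699 and 1417 CPM at 2 weeks, at 2609, 2853 and 4022 CPM in 20-week replicate 1 and at 790, 1169 and 1856 CPM in 20-week replicate 2, higher at each step in every library.

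The rule did not ask members for Pdgfra, a receptor used to pick the comparison classes. It was found in 79.8%, 53.1% and 92.4% of them. At 2 weeks, 142 members without it held Pi16 at 1065 CPM and 560 with it at 870 CPM. Members with 3 or more tenocyte markers numbered 57 (8.12%), 4 (4.94%) and 7 (2.66%), against 53.4%, 41.3% and 35.3% of double-negative barcodes. At 2 weeks those 57 members held Pi16 at 330 CPM, against 976 CPM in the other 645. At 20 weeks the values were 3931 CPM in 4 members against 3054 CPM in 77, and 560 CPM in 7 against 1344 CPM in 256, so the order was turned in 20-week replicate 1.

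Between 2 and 20 weeks, double-positive barcodes had lower levels of imprinted growth, collagen and cell cycle genes and higher levels of complement, chemokine and oxidant-source genes. Of 10579 genes tested 167 were higher at 20 weeks and 212 lower, 3.58% in all. The fit rests on 1 library against 2, with 1 residual degree of freedom, and assumes that the lone 2-week library varies like the others. The spread behind these p-values came wholly from the value shared over genes, since the fitted prior degrees of freedom were infinite. DESeq2 gave 82 genes, 78 of them shared.

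Of 16 imprinted growth genes, a network active in the growing animal, 11 were lower at 20 weeks and none higher, with a median log2 change of -2.90 against 0.01 over all genes (2.00% of genes were lower). Dlk1, a Notch-like inhibitor of adipocyte differentiation, was at 443 CPM at 2 weeks and had no UMI in either 20-week library, at least 312-fold lower. The noncoding RNA H19 was at 1986, 3.53 and 3.59 CPM (log2 change -9.05, SE 0.82, adjusted p = 2.95e-24). Igf2, a fetal growth factor, was at 2103, 14.1 and 9.23 CPM (log2 change -7.58, SE 0.75, adjusted p = 2.55e-20). In the IGF axis 3 of 10 genes were lower: Igf1 (log2 change -2.47), Igfbp3 (-5.25) and Pappa.

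Of 31 collagen and collagen-processing genes 9 were lower and none higher (2.00% of all genes were lower). Col1a1 was at 14731, 593 and 783 CPM (log2 change -4.35, SE 0.75, adjusted p = 1.12e-06), and Col3a1 at 17920, 1560 and 1524 CPM (log2 change -3.46, adjusted p = 0.000312). Both 20-week values of each gene lay far below the 2-week value. Fbn2, the fibrillin of developing tissue, was at 36.7 CPM at 2 weeks and had no UMI in the members of either 20-week library, at least 25.9-fold lower. Cthrc1, a collagen triple helix repeat protein, was counted 2128 times at 2 weeks and 3 times at 20 weeks, a ratio of 299 in CPM (counting interval 102 to 1453). Tnmd changed by a log2 of -6.45 and Kera by -5.55.

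Of 21 cell cycle genes 10 were lower at 20 weeks and none higher, with a median log2 change of -3.28 (2.00% of all genes were lower). Mki67 was at 18.8 CPM at 2 weeks and had no UMI in the 20-week members, at least 13.2-fold lower. Barcodes with 3 or more cycle genes numbered 25 of 702 at 2 weeks (3.56%, interval 2.32 to 5.21). None was found among 81 and 263 members at 20 weeks, with exact intervals up to 4.45% and 1.39%. After thinning to 1000 UMIs 12 such members were found at 2 weeks and none at 20 weeks.

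Complement genes were higher in 7 of 11 and lower in none, with a median log2 change of 2.00 (1.58% of all genes were higher). C3, the central component of complement, was at 34.1, 1493 and 778 CPM (log2 change 5.14, SE 0.83, adjusted p = 1.54e-07). C4b and Vtn changed by a log2 of 2.21 and 3.11.

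Of 18 chemokines and cytokines 10 were higher and none lower, with a median log2 change of 2.59. For this list and the next 2, the share of all genes that were higher was 1.58%. Cxcl13, a B-cell attractant, was at 0.399, 28.2 and 43.1 CPM, from 2 UMIs at 2 weeks, a ratio of 109 with a counting interval of 29.3 to 914. Il6 was at 4.59, 52.9 and 57.4 CPM (log2 change 3.65, SE 0.64, adjusted p = 1.70e-06). Cxcl1 was at 87.2, 843 and 518 CPM. The eosinophil attractant Ccl11 was at 59.5, 84.7 and 766 CPM, so its rise lay mostly in replicate 2. Of 19 interferon and antigen presentation genes 6 were higher, led by Ifi205 (log2 change 3.16). Of 26 dissociation and stress genes, Zfp36 alone passed, higher at 154.8, 303 and 1148 CPM; the median log2 change of the list was 0.89, against 0.01 over all genes.

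The series title speaks of oxidative stress, and transcripts of genes for oxidant sources and for antioxidant enzymes were counted in members. These are RNA levels only. Of 7 oxidant sources 5 were higher at 20 weeks: the hydrogen peroxide-making oxidases Nox4 and Duox1, the monoamine oxidase Maob, Xdh and Aox1. Over all genes tested 1.58% were higher. Nox4 was at 12.2, 24.7 and 75.4 CPM (log2 change 2.24, SE 0.57, adjusted p = 0.00405). Xdh, xanthine dehydrogenase, was at 27.7, 113 and 116 CPM (log2 change 2.12, SE 0.57, adjusted p = 0.00868). For both genes the 20-week values exceeded that of the 2-week library.

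Of 25 antioxidant enzymes 2 were higher and 1 lower, with a median log2 change of 0.11 (3.58% of all genes passed). Gpx3, the secreted glutathione peroxidase, was at 14.2, 819 and 252 CPM (log2 change 5.31, SE 0.79, adjusted p = 5.24e-09). The metallothionein Mt2 was at 251, 1387 and 1654 CPM, and Gpx7, of the endoplasmic reticulum, at 197, 49.4 and 53.8 CPM (log2 change -1.85). The superoxide dismutases Sod1, Sod2 and Sod3 had log2 changes of 0.47, 0.17 and 1.00, none past the threshold. Of 20 NRF2 targets Gclc (2.19) and Gstm1 (2.15) were higher, where 1.58% of all genes were.

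Of the 38 progenitor and universal fibroblast genes 4 were higher and 1 lower at 20 weeks, where 3.58% of all genes passed. Those were Has1, a hyaluronan synthase (log2 change 2.60), Gfpt2 (2.22), Smpd3 (2.12) and Procr (1.99) on the one side, and Nt5e (-2.15) on the other. Pi16 had a log2 change of 1.36 (SE 0.72, adjusted p = 0.542), Efemp1 of 1.31 (adjusted p = 0.438) and Fbn1 of -0.44 (adjusted p = 0.997). Smpd3 rested on 1 library: its adjusted p was 0.0218, and against 20-week replicate 2 alone its log2 ratio was -0.071. Cd55 in members was at 623, 988 and 833 CPM and Cd248 at 614, 925 and 534 CPM, values fixed in part by the rule.

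Genes with the largest rises included the methyltransferase Inmt, counted once at 2 weeks and 517 times at 20 weeks, a ratio of 1225 with a counting interval of 219 to 48485. The glycosyltransferase Galnt15 had a ratio of 207 (70.0 to 1010, from 3 and 262 UMIs). The complement component C7 was at 5.59, 38.8 and 430 CPM (log2 change 5.49) and Hsd11b1, which regenerates active glucocorticoid, at 2.00, 17.6 and 124 CPM (log2 change 5.33). Xist also passed. Without barcodes that held 3 or more markers of another cell type 327 genes passed, 319 of them shared. Muscle markers summed to 75.9, 3.43 and 380 CPM in members, and the muscle actin Acta1, at 23.1, 0 and 152 CPM, passed with a log2 change of 1.97; the part of muscle RNA in it was not tested.

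**Figure D4:**
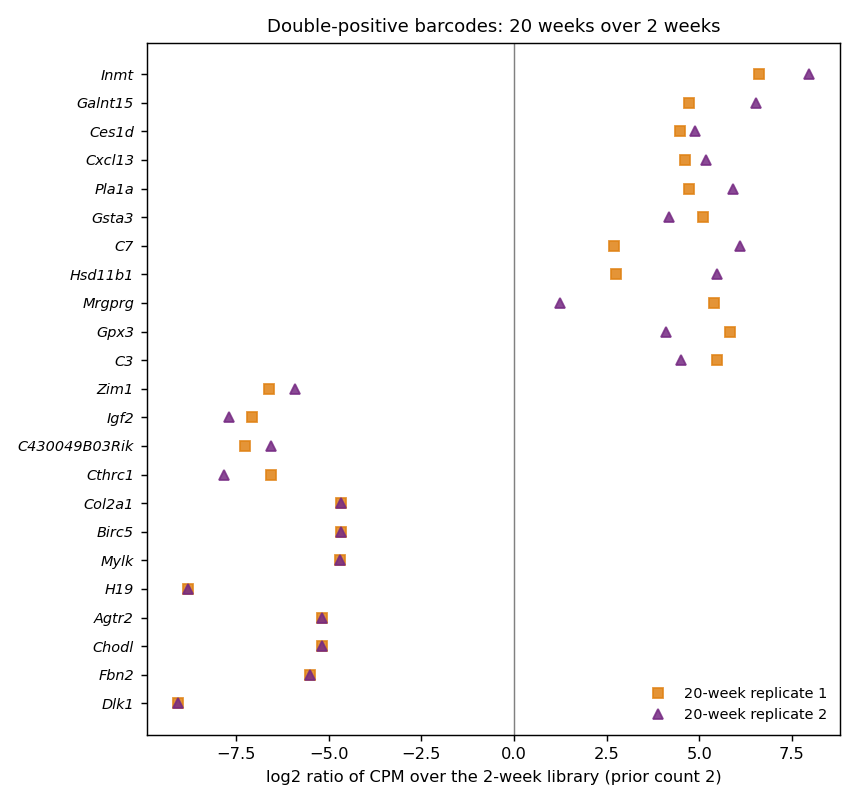
Log2 ratio of CPM in double-positive barcodes, each 20-week library over the 2-week library (prior count 2), for the genes with the largest rises and falls that passed with the same sign in both (Xist is left out). Squares are replicate 1 and triangles replicate 2; ratios of genes with no UMI at 20 weeks depend on the prior count.

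Whether the log2 ratio of double-positive over double-negative barcodes differed between ages was tested as an interaction. It passed for 52 of 8372 genes (0.621%): 7 had a higher ratio at 20 weeks than at 2 weeks (0.0836%) and 45 a lower one (0.538%). DESeq2 gave 11, and 20 passed without barcodes that held markers of another cell type. Among the 38 progenitor and universal fibroblast genes 2 had a higher ratio at 20 weeks, Smpd3 and Col14a1, and 6 a lower one, Tek, Ly6c1, Procr, Ly6a, Efemp1 and Igfbp6.

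For Ly6a the log2 ratio over double-negative barcodes was 3.50 at 2 weeks and 1.32 and 1.36 at 20 weeks (difference -2.19, SE 0.40, adjusted p = 0.00459). Its level in members was 1768, 2258 and 1482 CPM, while in double-negative barcodes it was 156, 902 and 579 CPM, so the wider spread between ages lay in the comparison class, which was not tested on its own. Efemp1 had ratios of 4.90, 2.93 and 2.92 (difference -2.11, SE 0.47, adjusted p = 0.0235), with 7.62, 65.2 and 97.1 CPM in double-negative barcodes. Pi16 had a difference of -1.45 (adjusted p = 0.793) and Fbn1 of -0.25, and neither passed.

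Smpd3 had log2 ratios of 0.58, 5.28 and 2.95 (difference 3.50, SE 0.66, adjusted p = 0.00549). Without barcodes that held 3 or more markers of another cell type the difference was 1.04 (adjusted p = 1.0); 232 double-negative barcodes of the 2-week library (29.9%) held 3 or more chondrocyte-like markers. Col14a1, a collagen that sits on fibril surfaces, was at 1068, 674 and 453 CPM in members and 1246, 223 and 103 CPM in double-negative barcodes (difference 2.10, SE 0.38, adjusted p = 0.0037). The urokinase gene Plau had ratios near 0 at 20 weeks and 3.79 at 2 weeks.

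**Figure D5:**
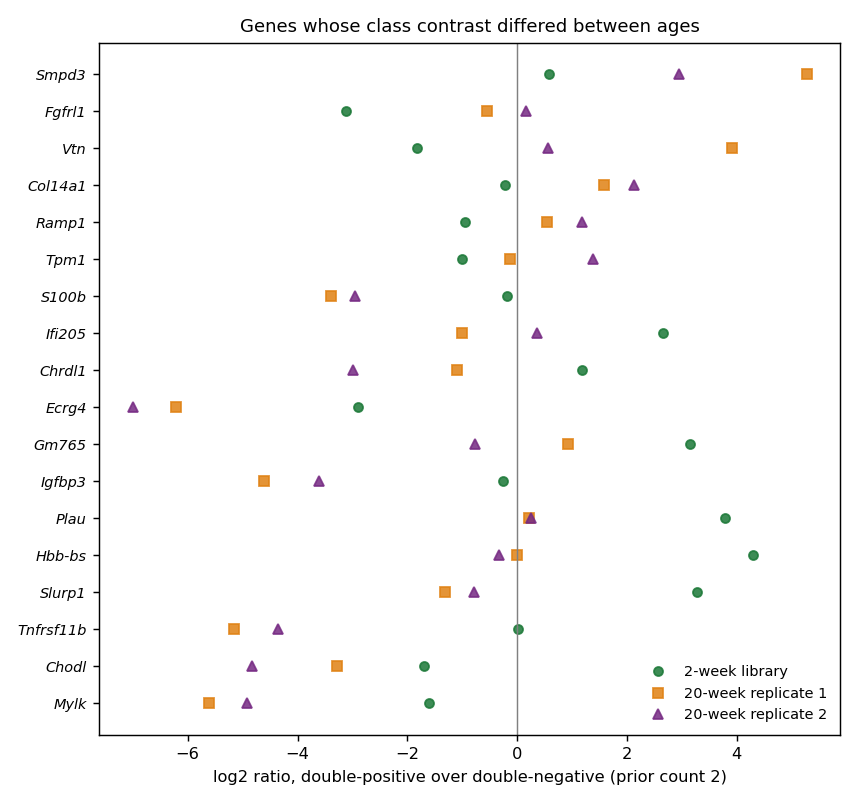
Log2 ratio, double-positive over double-negative, in each library (prior count 2), for the 18 genes named by the rule among those whose contrast differed between ages. Circles are the 2-week library, squares and triangles the 20-week replicates; Smpd3 is at 0.58, 5.28 and 2.95.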

How the data were processed

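Per the labels, the 3 libraries were made with a 10x Genomics kit; per the submitters' processing notes, Cell Ranger 6.1.2 and the mm10 build were used, and the annotation release is not given in the sources used here. The deposited matrices hold UMI counts, raw and per barcode, for 32288 features. Positions were taken from GENCODE M21, which holds 32235 of the 32285 Ensembl identifiers.

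Barcodes passed the 3 filters given above; no doublet caller was run, and leaving out the 5% of barcodes with the most UMIs was an alternative. UMIs were summed per library and class (12 sums, 122473 to 5154296 UMIs with all features), without mitochondrial genes and transgenes. Sums were tested in edgeR 4.0.16 (R 4.3.3; TMM, filterByExpr, quasi-likelihood F test, Benjamini-Hochberg over all genes tested), with all 4 classes and the library as a block; for age, the 3 double-positive sums were used. DESeq2 1.42.0 was an alternative. Scripts were tested on simulated data. The members and gene lists were chosen with earlier results of these data known. Named genes were, per comparison, up to 12 each way with the largest change among those that passed. They needed at least 20 CPM on the higher side and 1 sign in every library. For the interaction, both 20-week ratios instead had to lie on the same side of the 2-week ratio. Ratios of those genes could thus change sign between libraries. The given markers and up to 4 members of each list by CPM were added. Further members in the text were chosen after their values were seen. Intervals are exact at 95%; a count of 0 was read as at most 3 over the group. Depth per library was 34768514, 1803463 and 5581338 UMIs in kept barcodes. The libraries shared 2, 3 and 0 barcode sequences in pairs. Alternatives covered thinning, stricter filters, UMI windows, Pdgfra in members, normalization, the block and leaving out a library. The result of 1 gene is not reported here.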

Additional observations from a re-analysis of the deposited data

Results flagged for a closer look

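The contrast of double-positive against double-negative barcodes differed between ages for 52 genes by an interaction term in edgeR (adjusted p under 0.05). Those named had a difference in log2 ratio, 20 weeks minus 2 weeks, of 3.50 for Smpd3, 3.40 for Fgfrl1, 2.75 for Vtn, 2.10 for Col14a1, 1.97 for Ramp1 and 1.95 for Tpm1. It was negative for Mylk (-7.39), Chodl (-6.91), Tnfrsf11b (-5.66), Slurp1 (-5.20), Hbb-bs (-4.77), Plau (-4.23), Igfbp3 (-3.93), Gm765 (-3.91), Ecrg4 (-3.86), Chrdl1 (-3.42), Ifi205 (-3.39) and S100b (-3.12). Mylk and Chodl had no UMI in 20-week members, so their fitted values depend on the prior count.

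Reporter transcripts, which the comparisons do not use, were found in members of libraries labelled WT. EGFP had 369 UMIs in members at 2 weeks, 1 in 20-week replicate 1 and 6 in 20-week replicate 2. tdTomato had 126, 35 and 337 UMIs, held by 87, 16 and 83 members.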

How the results depend on the processing

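Of 6179 repeats of single-gene results 5232 were labelled the same. That meant the same side of the adjusted p threshold, with no change of sign where either fit passed. With a 20-week library left out of the age result, it meant a log2 ratio within a standard deviation of the fitted value. With classes set after thinning to 2000 UMIs, 4 that had passed in the main fit changed sign: Acan against Cd55-only (0.51), Spp1 against Cd248-only (0.12), and the age differences of Hbb-bs (2.39) and Clu (0.21). With age, Smpd3 was -0.071 without 20-week replicate 1 and 2.95 without 20-week replicate 2, and F3 was 2.54 and -0.25. The cause was not tested.

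Against double-negative barcodes, 352 genes passed with barcodes thinned to 1000 UMIs (2559 genes tested) and 536 with no replicate block; leaving out a library gave 482 (without the 2-week library) to 1326, with 717 without 20-week replicate 2. Against Cd55-only, 615 passed at 2 or more UMIs of each gene, 116 at 3000 to 8000 UMIs, 98 thinned, 83 with classes from thinned barcodes, 106 with Pdgfra and that window, 666 without a filter on low counts, 115 with no replicate block, 223 with only the 2 classes, and 195 (without the 2-week library) to 291 without a library, with 237 without 20-week replicate 2. Against Cd248-only the counts were 143 thinned, 319 with Pdgfra and the window, 797 unfiltered, 138 with no replicate block, and 188 (without the 2-week library) to 488 without a library, with 244 without 20-week replicate 2. For age they were 82 by DESeq2, 237 in the window, 131 thinned and 219 with Pdgfra and the window. For the interaction they were 11 by DESeq2, 85 at 2 or more UMIs, 9 thinned, 27 with Pdgfra and the window, 95 unfiltered and 20 without barcodes of other types. The setting with Pdgfra and the window was chosen after seeing the data. The window and the thinned classes left the Cd55-only sum of 20-week replicate 1 with 19 and 17 barcodes, under the minimum of 20, so it was left out.

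Shares at 2 weeks were 24.2% of Pdgfra barcodes, 21.3% with no sheath exclusion, 7.998% at 2 UMIs of each, 5.18% and 9.14% thinned to 1000 and 2000 UMIs. In 20-week replicate 1 they were 19.5%, 18.6% (stricter filters), 6.24% (2 UMIs of each) and 4.93% (1000 UMIs), and in replicate 2 38.1%, 29.6%, 15.2%, 6.11% and, at 2000 UMIs, 14.7%. Co-detection with Pdgfra alone was 1.36, 1.10 and 1.19 times the expected count, and 1.82 in replicate 2 without UMI bins.

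No paired analysis was possible because the 2-week library has no replicate number to pair with, so age was fitted without pairs; the age fit and the interaction could not be refitted without a library, and ratios of single libraries were used. The 81 members and low depth of 20-week replicate 1 limit what that library can show.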
